A study of Mus musculus with 6 samples.

Results

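The genes described here belong to inflammasomes, pyroptosis and necroptosis. Rows of 10 of them were taken from the deposited table by symbol: Nlrp3, Nlrc4, Aim2, Pycard, Casp1, Casp4, Gsdmd, Ninj1, Mlkl and Ripk3. The list was drawn up with earlier results of these data known. All 10 were found among the 19613 rows, and 7 of the 10 passed the filter on low values (3 or more libraries with 1 FPKM or above). FPKM are by definition fragment counts divided by gene length and by the library's mapped fragments, though the deposited denominators may differ from the latter. The libraries came from livers of knockout mice (KO, 3 libraries) and of wild-type mice (WT, 3 libraries). Both genotypes had been injected intraperitoneally with 15 mg/kg lipopolysaccharide (LPS, a cell wall component of Gram-negative bacteria), and livers were collected after 6 h. There were no untreated livers, so the comparison is between genotypes under LPS and holds nothing on induction by LPS itself. The labels give no strain, sex or age and leave unsaid whether each library stands for its own animal; p-values therefore rest on library-to-library spread, which may be technical.

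Inflammasomes are cytosolic complexes in which a sensor, often through an adaptor, gathers and activates caspase-1. In the noncanonical pathway mouse caspase-11, the product of Casp4, is activated by LPS in the cytosol. Both caspases cut gasdermin D, whose amino-terminal part opens pores in the plasma membrane, and NINJ1 then ruptures the membrane; this death is called pyroptosis. Necroptosis is a separate lytic death in which the kinase RIPK3 phosphorylates MLKL. In mice given high doses of LPS, caspase-11 and gasdermin D are known to contribute to lethality.

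None of the 7 tested genes differed between KO and WT livers at an adjusted p under 0.05 (limma on log2(FPKM + 1) after median-of-ratios scaling, Benjamini-Hochberg over 9218 genes). The same test called 99 of all 9218 genes (1.07%), 44 higher (0.477%) and 55 lower (0.597%) in KO, and on the values as deposited 2648 higher and 55 lower. At an unadjusted p under 0.05 stood 1 of the 7 genes, Ninj1, which was lower in KO, against 14.1% of all genes (6.79% higher and 7.31% lower), and limma-voom on recovered read counts also called none of the 7 at an adjusted p under 0.05 (1.11% of all genes, 0.510% higher and 0.597% lower). The median log2 fold change of the 7 genes was -0.14, with 5 below 0 and 2 above, and that of all tested genes was -0.005. Between them the 10 genes spanned a wide range of levels: Ninj1, Gsdmd and Mlkl made up between 88.9% and 92.8% of the summed scaled FPKM of the 10 in each library.

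**Figure D1:**
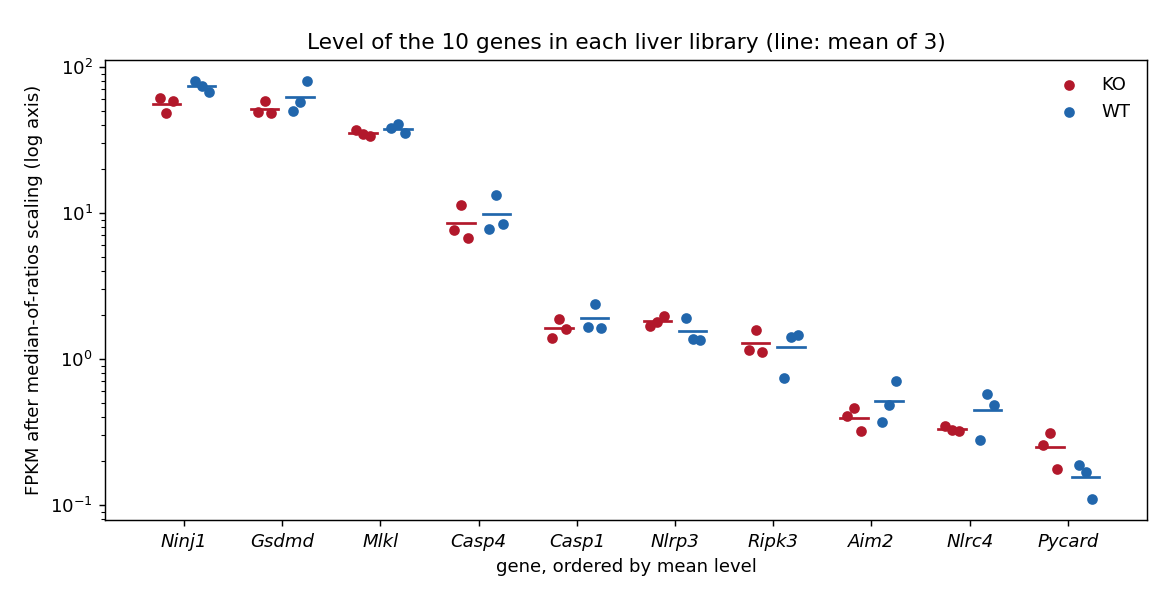
FPKM after median-of-ratios scaling (log axis) of the 10 genes in each of 3 KO and 3 WT liver libraries, with a line at each mean. Ninj1, Gsdmd and Mlkl stand above 30 FPKM in every library, Casp4 lies between 6.76 and 13.3, and Aim2, Nlrc4 and Pycard lie below 1; KO and WT points overlap for all genes but Ninj1.

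Ordered by the mean over all 6 libraries, the scaled levels were 64.8 FPKM for Ninj1, 57.1 for Gsdmd, 36.4 for Mlkl, 9.22 for Casp4, 1.76 for Casp1, 1.67 for Nlrp3, 1.24 for Ripk3, 0.457 for Aim2, 0.388 for Nlrc4 and 0.201 for Pycard. Ninj1 and Gsdmd overlapped in range, as did Casp1, Nlrp3 and Ripk3, Aim2 with Nlrc4, and Nlrc4 with Pycard. Gsdmd, Mlkl, Casp4 and Ripk3 each had a range that did not overlap that of the next gene in the order. The order rests on the gene length used by the authors. For Casp4 that length was 3710 bases against 1435 in the transcript with the longest coding sequence in GENCODE M21, and for Casp1, where it could be inferred only up to a whole multiple, it was 3136 or more against 1497 bases. Per base of that transcript the means would be 23.8 for Casp4 and 3.68 for Casp1 (with its length taken as 3136 bases). Only Aim2 and Nlrc4 would then change places, with Pycard kept at the 3800 bases of its transcript. The length behind Pycard, 3800 bases, equals that of its GENCODE M21 transcript but exceeds the 2495 bases that the whole RefSeq gene spans on GRCm38. From the same reads a shorter length would give a higher FPKM, and where the reads fall was not examined.

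Of the 3 sensors among the 10 genes, only Nlrp3, which responds to membrane damage and potassium efflux, was abundant enough to be tested. Nlrp3 stood at 1.67, 1.802 and 1.95 scaled FPKM in KO replicates 1 to 3 and at 1.90, 1.38 and 1.34 in WT replicates 1 to 3. WT replicate 1 lay among the KO libraries while the other WT libraries lay below them, so the groups overlapped. The log2 fold change was 0.15 (standard error 0.12, 95% interval -0.13 to 0.43, limma adjusted p = 0.641). On recovered reads, where the pseudocount does not shrink low genes, limma-voom without the filter gave 0.27 with an interval from a 0.874-fold to a 1.65-fold level in KO. As deposited, without scaling between libraries, Nlrp3 was higher in every KO library than in any WT library (log2 fold change 0.51, limma adjusted p = 0.0558). The same held for Mlkl and Pycard as deposited. The share of all genes without overlap was not counted on those values, where 2648 of 9218 genes were called higher. The median of all genes was then shifted by 0.45, and relative to that shift the Nlrp3 difference was 0.06.

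Nlrc4 and Aim2 stayed below 1 FPKM in every library and were not part of the test. Nlrc4, which assembles with NAIP proteins that bind bacterial flagellin and secretion needles, was covered by 60, 58 and 74 reads in KO replicates 1 to 3 and by 39, 91 and 62 reads in WT replicates 1 to 3. Its scaled FPKM were 0.346, 0.324 and 0.320 in KO and 0.276, 0.575 and 0.486 in WT, so the narrow KO values lay inside the WT range. Aim2, a sensor of double-stranded DNA, had 0.404, 0.461 and 0.321 scaled FPKM in KO and 0.370, 0.486 and 0.700 in WT, from 51, 60 and 54 reads in KO and 38, 56 and 65 reads in WT. The groups overlapped for both genes. By two-sided exact permutation, in which the 20 possible label assignments allow no p below 0.1, p was 0.4 for each. In limma-voom without the filter the interval for Nlrc4 ran from a 0.461-fold to a 1.30-fold level in KO. For Aim2 it ran from a 0.460-fold to a 1.33-fold level.

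Pycard codes for ASC, the adaptor that links sensors to caspase-1. It was covered by 35, 44 and 32 reads in KO and by 21, 21 and 11 reads in WT, the lowest counts of the 10 genes. Per library the scaled FPKM were 0.255, 0.311 and 0.175 in KO against 0.188, 0.168 and 0.109 in WT. KO replicate 3 lay below WT replicate 1, so the groups overlapped, while KO replicates 1 and 2 lay above all WT libraries. The exact Poisson interval (95%) of the 35 reads in KO replicate 1 ran from 24.4 to 48.7 and that of the 11 reads in WT replicate 3 from 5.49 to 19.7; such intervals cover counting error only. In limma-voom without the filter the log2 fold change was 0.62 (95% interval -0.38 to 1.61, adjusted p = 0.668), and the two-sided exact permutation p was 0.2. In GENCODE M21 an exon of Gm45205, on the opposite strand, overlaps 485 bases of Pycard, and no source used here states whether counting was strand-specific.

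Casp1 codes for caspase-1, which matures IL-1β and IL-18 and cuts gasdermin D. It had 1.40, 1.86 and 1.599 scaled FPKM in KO and 1.66, 2.38 and 1.63 in WT. The highest value of each genotype was replicate 2, and the groups overlapped. The log2 fold change was -0.14 (standard error 0.13, 95% interval -0.45 to 0.17, limma adjusted p = 0.717), and limma-voom without the filter gave an interval from a 0.611-fold to a 1.22-fold level. Without WT replicate 2 the log2 fold change was -0.02.

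Casp4, which follows Casp1 on the same strand of chromosome 9, codes for the LPS-binding caspase-11 and stood 5.26 ± 0.95 times above Casp1 in KO and 5.15 ± 0.448 times in WT (ratio of FPKM within a library, SD, n = 3 each). Its scaled FPKM were 7.61, 11.3 and 6.76 in KO and 7.81, 13.3 and 8.43 in WT. Replicate 2 was again the highest of each genotype, and the spread within a genotype was larger than the difference between them. The log2 fold change was -0.18 (standard error 0.23, 95% interval -0.70 to 0.35, limma adjusted p = 0.790). Without WT replicate 2 it was 0.04, the opposite sign. Casp1 and Casp4 are paralogs, and no source used here states how multi-mapping reads were handled, which makes their split uncertain.

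Ninj1 was the only one of the 10 genes without overlap between genotypes after scaling, and the caspase genes are neighbours on the chromosome. For this reason the stretches before the transcription start of Casp1, Casp4 and Ninj1 are shown. Each holds the 250 bases before the start, 5′ to 3′ on the gene's strand, from RefSeq on GRCm38.p6, with matches to a searched motif in capitals. The positions are chr9:5308599-5308848 for Casp4, chr9:5298267-5298516 for Casp1 and chr13:49187279-49187528 for Ninj1, all on the plus strand.
Casp4: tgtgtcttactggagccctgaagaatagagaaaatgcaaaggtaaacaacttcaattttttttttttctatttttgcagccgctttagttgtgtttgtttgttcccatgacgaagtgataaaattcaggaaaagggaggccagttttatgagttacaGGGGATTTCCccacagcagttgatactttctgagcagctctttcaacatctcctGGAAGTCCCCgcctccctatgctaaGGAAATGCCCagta
Casp1: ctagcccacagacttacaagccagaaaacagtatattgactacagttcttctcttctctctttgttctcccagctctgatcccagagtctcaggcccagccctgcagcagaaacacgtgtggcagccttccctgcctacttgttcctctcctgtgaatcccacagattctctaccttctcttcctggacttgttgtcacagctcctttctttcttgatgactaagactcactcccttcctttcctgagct
Ninj1: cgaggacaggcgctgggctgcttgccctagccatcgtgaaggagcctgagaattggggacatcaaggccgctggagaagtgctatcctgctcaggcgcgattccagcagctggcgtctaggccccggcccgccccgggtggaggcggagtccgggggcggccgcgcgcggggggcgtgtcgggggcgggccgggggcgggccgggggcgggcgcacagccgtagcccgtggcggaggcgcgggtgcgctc
The motifs searched on both strands were a kB site bound by NF-kB (GGG, then any 3 bases, then TTCC), an interferon-stimulated response element (GAAA, then any 2 bases, then GAAA) and a gamma-activated site (TTCNNNGAA). Of 32841 RefSeq promoters searched over the same length, 4.65% held the first, 2.98% the second and 7.02% the third. RefSeq listed a promoter for 9 of the 10 genes, all but Gsdmd. Casp4 held 3 matches to the kB form, beginning 93, 39 and 14 bases before the start, which do not overlap each other, and no match to either of the other motifs. A second listed start of Casp4 lies 11 bases downstream and shares these matches. None of the 3 motifs was found in the windows of Nlrp3, Nlrc4, Aim2, Pycard, Casp1, Ninj1, Mlkl or Ripk3. The Ninj1 window was 76.0% G and C, against 41.6% for Casp4 and 49.2% for Casp1. A match describes these letters only.

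Of the genes for membrane rupture, Gsdmd was the second most abundant of the 10. Gsdmd, the pore-forming gasdermin D, had 48.7, 58.5 and 48.0 scaled FPKM in KO and 50.01, 57.3 and 80.3 in WT. WT replicate 3 stood far above the other libraries, and without it the ranges nearly coincided. The mean was 51.7 ± 5.84 in KO and 62.5 ± 15.8 in WT (SD, n = 3 each). limma gave -0.25 on the log2 scale (95% interval -0.67 to 0.18, adjusted p = 0.616), or a level between 0.627-fold and 1.13-fold in KO. Without WT replicate 3 the log2 fold change was -0.05, and without WT replicate 1 it was -0.39.

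Ninj1 codes for the small membrane protein that ruptures dying cells after gasdermin D has opened its pores. It had 61.5, 48.1 and 58.4 scaled FPKM in KO and 79.7, 74.2 and 66.8 in WT. Every KO library lay below every WT library, as it did for 9.88% of all tested genes (20.2% had no overlap in either direction, 10.3% with KO above). The mean was 56.0 ± 7.02 in KO and 73.6 ± 6.44 in WT (SD, n = 3 each). The log2 fold change was -0.39 (standard error 0.14, 95% interval -0.71 to -0.07), with an unadjusted p of 0.0228 in limma that did not pass after adjustment (adjusted p = 0.269, and 0.160 to 0.544 over the alternatives tried). The two-sided exact permutation p was 0.1, the smallest possible. The groups also did not overlap with upper quartile scaling, quantile normalization or scaling to TPM (log2 fold change -0.39, -0.30 and -0.29). As deposited they did overlap, with 62.7, 61.6 and 81.8 FPKM in KO and 61.6, 53.7 and 66.0 in WT, and the log2 fold change was 0.17, which is -0.28 relative to the shift of all genes.

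The necroptosis genes differed widely in level from each other, and neither was called between genotypes. Ripk3, the kinase, had 1.15, 1.58 and 1.11 scaled FPKM in KO and 0.743, 1.41 and 1.45 in WT. WT replicate 1 was the lowest of the 6 libraries and KO replicate 2 the highest, and the groups overlapped. The log2 fold change was 0.06 (95% interval -0.30 to 0.43, limma adjusted p = 0.908). It was -0.03 without KO replicate 2 and -0.10 without WT replicate 1. On recovered reads, limma-voom without the filter gave 0.14 for Ripk3, with an interval from a 0.684-fold to a 1.77-fold level in KO.

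Mlkl, whose product is the executioner that permeabilises the membrane, had 36.8, 34.9 and 33.4 scaled FPKM in KO and 38.1, 40.4 and 34.96 in WT. KO replicate 1 lay within the WT range and the other KO libraries just below it. Mlkl had the smallest coefficient of variation of the 10 genes over the 6 libraries (6.95%, against 15.8% to 35.5% for the others). Its log2 fold change was -0.11 (95% interval -0.37 to 0.16, limma adjusted p = 0.751), which bounds the KO level between 0.773-fold and 1.12-fold. Within a library Mlkl stood 28.1 ± 5.30 times above Ripk3 in KO and 34.7 ± 14.5 times in WT (SD, n = 3 each); the ratio was highest in WT replicate 1, at 51.3, and the exact permutation p was 0.7.

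**Figure D2:**
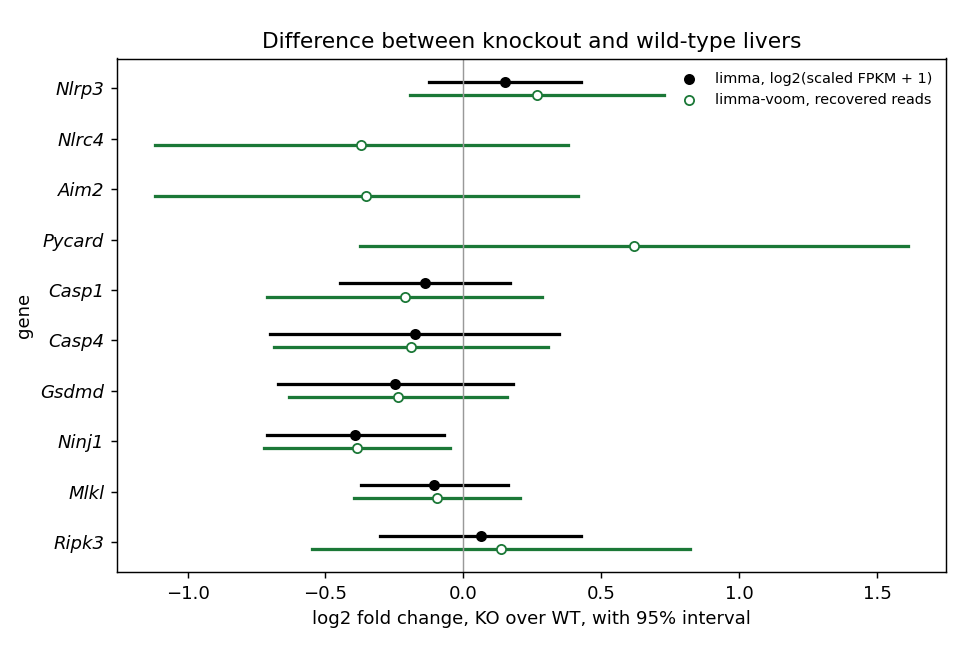
Log2 fold change (KO over WT) with its 95% interval for each of the 10 genes, from limma on log2(scaled FPKM + 1) for the 7 genes that passed the filter (filled) and from limma-voom on recovered reads without the filter for all 10 (open). All intervals but those of Ninj1 cross 0, and the widest is that of Pycard, from -0.38 to 1.61 in limma-voom.

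Other genes of the same pathways were counted in 5 lists, of which 97 of the 109 symbols were in the table and 77 were tested. These lists too were drawn up with earlier results of these data known, so the shares beside them are description only. Of the 77, Hspa8 was higher and Txnip lower in KO at an adjusted p under 0.05 in limma, against 0.477% and 0.597% of all tested genes. The median log2 fold change of the 77 was -0.07. Both genes belong to the list of inflammasome regulators (13 tested, 1 higher and 1 lower in KO, median -0.04). At an unadjusted p under 0.05, 3 of the 13 were higher and 2 lower in KO, against 6.79% and 7.31% of all genes. Without KO replicate 1 or KO replicate 3 neither passed.

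Txnip, which binds thioredoxin, restrains glucose uptake and has been described as a partner of NLRP3, had 8.37, 12.8 and 8.91 scaled FPKM in KO and 23.3, 47.3 and 33.8 in WT. It fell to 10.02 ± 2.40 FPKM in KO, against 34.8 ± 12.1 in WT (SD, n = 3 each; log2 fold change -1.67, limma adjusted p = 0.0235). Every KO library lay below every WT library, as for 9.88% of all tested genes. The limma adjusted p was 0.131 without KO replicate 1, 0.0868 without KO replicate 3 and 0.0845 without WT replicate 3.

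Hspa8, a constitutive cytosolic chaperone that was listed because chaperones hold NLR proteins ready, had 737, 502 and 566 scaled FPKM in KO and 217, 233 and 310 in WT. It rose to 602 ± 121 FPKM in KO, against 253 ± 49.8 in WT (SD, n = 3 each; log2 fold change 1.24, limma adjusted p = 0.0276). The adjusted p was 0.113 without KO replicate 1, 0.0997 without KO replicate 3, 0.0582 without WT replicate 1 and 0.101 without WT replicate 2. Hsp90aa1, another chaperone of that list, differed by 0.69 on the log2 scale (limma adjusted p = 0.168), and Irf1, a transcription factor induced by interferon, by -0.22 (limma adjusted p = 0.663).

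**Figure D3:**
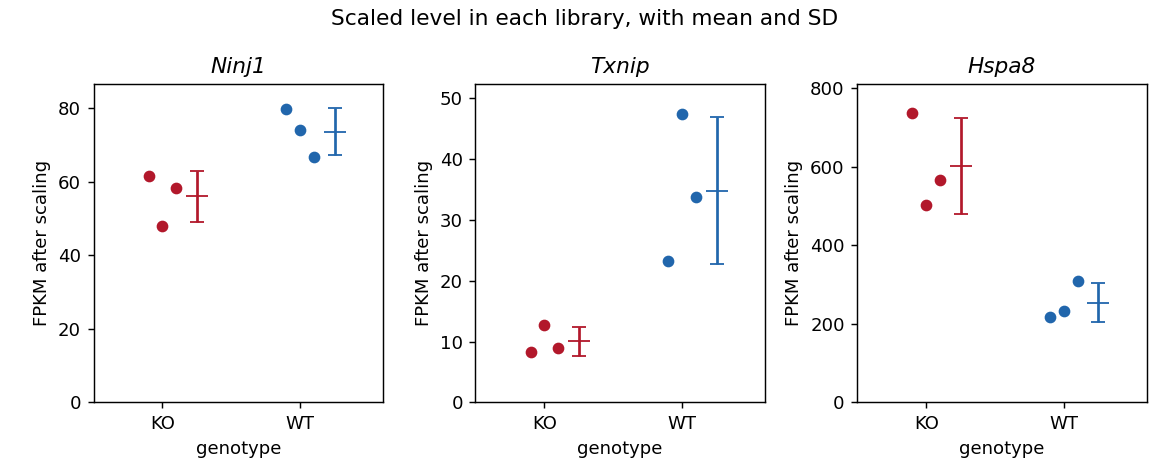
FPKM after scaling of Ninj1, Txnip and Hspa8 in each of 3 KO and 3 WT libraries, with mean and SD beside the points. The groups do not overlap for any of these genes, as for 20.2% of all tested genes in either direction. Txnip averaged 10.02 in KO and 34.8 in WT, and Ninj1, with 56.0 in KO and 73.6 in WT, did not pass the adjusted test.

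The other 4 lists had no gene past the adjusted p in limma or limma-voom. Of 9 tested inflammasome sensors 3 lay above 0 and 6 below, with a median log2 fold change of -0.15 and none at an unadjusted p under 0.05. The most abundant were Nlrp6 (60.1 ± 11.9 scaled FPKM in KO and 73.1 ± 19.9 in WT), Dpp9, a protease that restrains NLRP1 (27.3 ± 2.03 in KO and 23.5 ± 4.53 in WT), and Nlrp12 (22.2 ± 2.26 in KO and 18.9 ± 1.36 in WT; SD, n = 3 each). Each of these genes stood above Nlrp3 in scaled FPKM, and their log2 fold changes were -0.26, 0.22 and 0.22. Nlrp6 was at -0.50 without WT replicate 1 and at -0.10 without WT replicate 3.

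Of 15 tested effectors and cargo of pyroptosis 5 lay above 0 and 10 below, with a median of -0.07 and 1 at an unadjusted p under 0.05, against 14.1% of all genes. That gene was Il18, a cytokine matured by caspase-1, which stood at 11.4, 12.4 and 10.7 scaled FPKM in KO and 15.4, 20.6 and 16.4 in WT. No KO library reached a WT library, as for 9.88% of all tested genes, and the log2 fold change of -0.56 did not pass (limma adjusted p = 0.114). Il18 is singled out here because of that value. Il1b, the other main cargo, stood at 24.3, 31.1 and 26.2 scaled FPKM in KO and 23.7, 24.2 and 19.9 in WT. Its KO libraries all lay above the WT libraries, as for 10.3% of all tested genes, and the log2 fold change of 0.25 did not pass (limma adjusted p = 0.460). The abundant Chmp4b and Chmp2a, of the ESCRT machinery that removes damaged membrane, had values of 0.004 and -0.10.

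Of 14 tested genes for LPS sensing in the noncanonical pathway 6 lay above 0 and 8 below, with a median of -0.03 and 2 at an unadjusted p under 0.05, both lower in KO, against 7.31% of all genes. The most abundant were Gbp2, a guanylate-binding protein that coats bacteria (252 ± 55.4 scaled FPKM in KO and 238 ± 30.02 in WT), Cd14, the LPS co-receptor (167 ± 38.6 in KO and 125 ± 19.2 in WT), and Irgm1 (161 ± 11.5 in KO and 166 ± 9.99 in WT; SD, n = 3 each). Their log2 fold changes were 0.06, 0.41 and -0.05, with limma adjusted p between 0.405 and 0.922.

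All 28 genes of the necroptosis list were tested, 9 above 0 and 19 below, with a median log2 fold change of -0.06. At an unadjusted p under 0.05, 2 were higher and 4 lower in KO, against 6.79% and 7.31% of all genes. Hsp90ab1, a chaperone of RIPK3 and MLKL, had 176 ± 29.01 scaled FPKM in KO and 110 ± 32.9 in WT (log2 fold change 0.70, limma adjusted p = 0.223). Zbp1, a nucleic acid sensor that can engage RIPK3 directly, had 95.5 ± 8.78 in KO and 124 ± 21.9 in WT (log2 fold change -0.36, limma adjusted p = 0.352). Tnfrsf1a, the TNF receptor upstream of the pathway, had 55.9 ± 8.16 in KO and 52.3 ± 8.80 in WT (SD, n = 3 each; log2 fold change 0.10, limma adjusted p = 0.858).

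**Figure D4:**
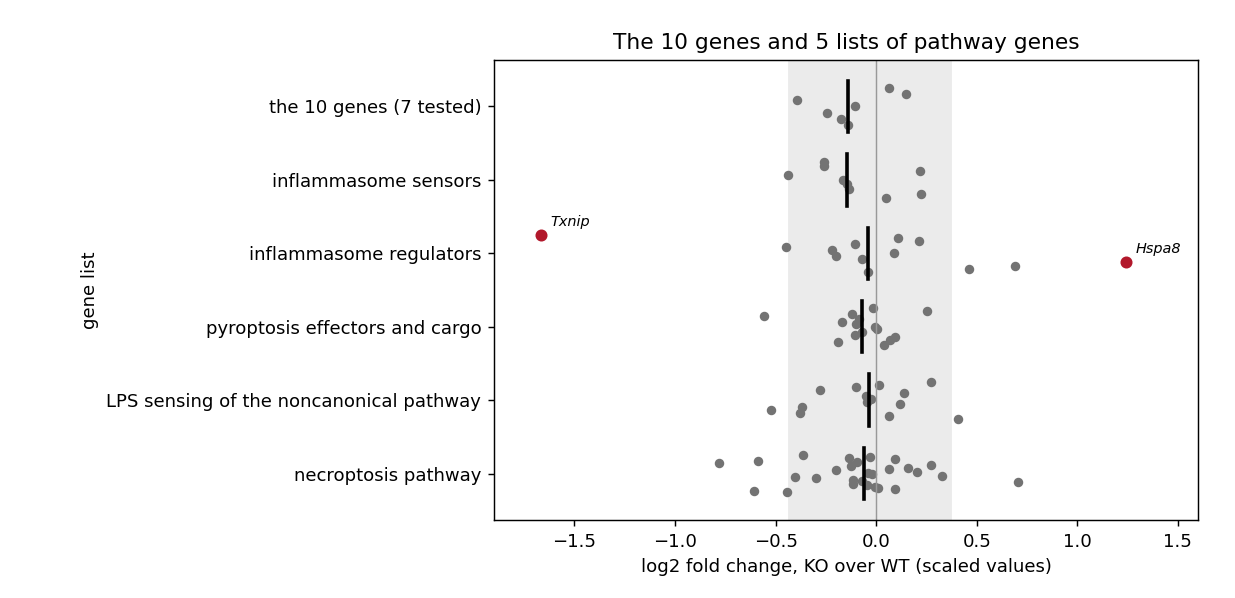
Log2 fold change (KO over WT, scaled values) of each tested gene among the 10 and in the 5 lists of pathway genes, with a bar at each median, called genes in red and a band from the 5th to the 95th percentile of all tested genes (-0.43 to 0.37). Txnip, at -1.67, and Hspa8, at 1.24, are the called genes, and all 7 tested genes of the 10 lie within the band.

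Over the 6 libraries some pairs of the 10 genes ran together and others ran opposite. Of the 45 pairs, Casp1 and Casp4 had a Pearson r of 0.89 and a Spearman rho of 0.89 (exact permutation p = 0.0111 and 0.0333, adjusted over the 45 pairs 0.167 and 0.375), and r was 0.95 without KO replicate 1 and WT replicate 2. Aim2 and Gsdmd had an r of 0.98 and a rho of 0.89 (exact permutation p = 0.00833 and 0.0333, adjusted 0.167 and 0.375), and r was 0.89 without KO replicate 3 and WT replicate 3. Nlrp3 ran opposite to Aim2, with an r of -0.85 and a rho of -0.94 (exact permutation p = 0.00694 and 0.0167, adjusted 0.167 and 0.375), and r was -0.64 without WT replicates 2 and 3. Nlrp3 and Nlrc4 had an r of -0.93 and a rho of -0.89 (exact permutation p = 0.0153 and 0.0333, adjusted 0.172 and 0.375), and r was -0.68 without WT replicates 2 and 3. No pair passed after adjustment, and all points share their libraries and scaling. With 6 libraries the smallest possible exact p is too large for a lone pair to pass over 45 pairs. Failing to pass therefore does not show that a shared pattern is absent. Aim2 and Nlrc4 were below the filter, at 38 to 65 and 39 to 91 reads per library, so counting error enters their pairs. The genes outside the 10 closest to the mean standardised profile of the 7 tested were Use1, Gemin7 and Bcl9, with a Pearson r of 0.997, 0.994 and 0.994 over 6 libraries, given as a description.

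**Figure D5:**
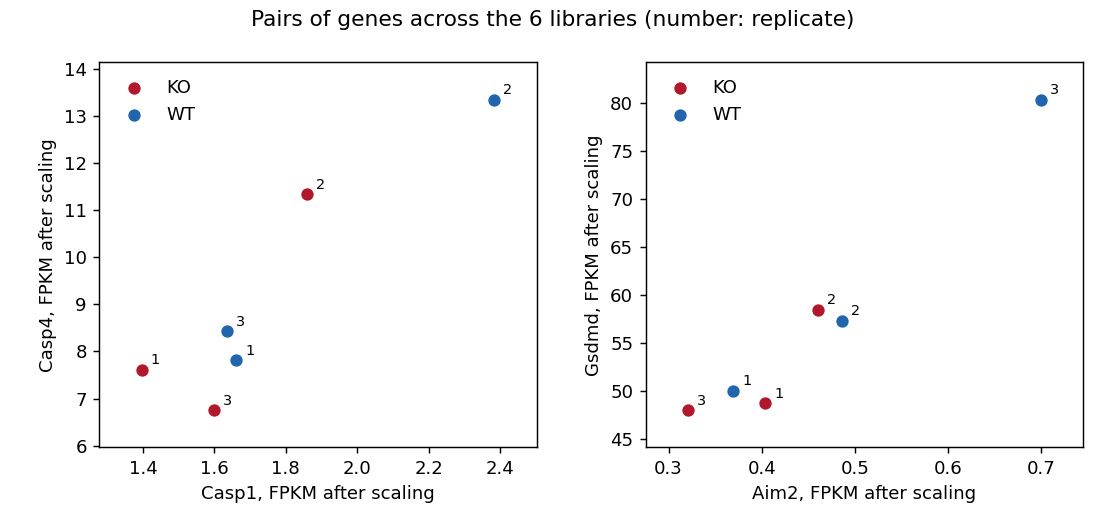
FPKM after scaling of Casp4 against Casp1 and of Gsdmd against Aim2, a point per library with its replicate number. KO replicate 2 and WT replicate 2 hold the highest values of both caspase genes, and WT replicate 3 holds the highest of Gsdmd (80.3) and Aim2 (0.700).

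Several of the 10 genes are best known in macrophages and other blood cells, and in bulk liver fewer cells of a type and less RNA per cell cannot be told apart. Hepatocyte markers dominated, with Alb at 10816 ± 831 scaled FPKM in KO and 13560 ± 2862 in WT and Apoa1 at 4859 ± 576 in KO and 5248 ± 119 in WT (SD, n = 3 each). Of the 8 hepatocyte markers, all tested, 7 lay below 0 and 1 above, with a median log2 fold change of -0.28. The summed Kupffer cell markers, led by C1qb and C1qa, ranged from 46.2 to 71.6 scaled FPKM in KO and from 49.4 to 77.0 in WT. The list of monocyte markers, led by Fn1 and Plac8, summed to 124 to 144 in KO and 141 to 159 in WT. Which cells these transcripts came from was not tested, so that sum is no measure of monocytes. The neutrophil markers, led by S100a9 and S100a8, ranged from 123 to 134 in KO and from 117 to 176 in WT. Endothelial (Lyve1, Cdh5), stellate (Dcn, Rgs5) and cholangiocyte (Spp1, Sox9) sums overlapped between genotypes as well. No marker of any of these 7 lists passed the adjusted p in limma or limma-voom; in limma 3 of 8 tested Kupffer markers, 1 of 5 endothelial markers and 1 of 8 hepatocyte markers were lower in KO and 1 of 3 cholangiocyte markers higher at an unadjusted p under 0.05, against 7.31% of all genes lower and 6.79% higher. The part of cell numbers in the values of the 10 genes was not tested.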

How the data were processed

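The deposited values are FPKM per gene, made by the authors, in a single table of 19613 rows with a column per library; columns were matched to samples by library name. The submitters' processing notes name HISAT2 2.0.5 and, with no role stated, 2 builds (hg38, mm39). Counter, strand setting and annotation: not given in the sources used here. Library sums differed (327641 to 576649 FPKM), so values were divided by median-of-ratios factors over the 9218 genes that reached 1 FPKM in 3 or more libraries. Testing used limma 3.58.1 under R 4.3.3 (eBayes with trend, two-sided, genotype as the only term) on log2(FPKM + 1), which understates the change of low genes; calls are at an adjusted p under 0.05 (Benjamini-Hochberg). Standard errors are those of limma.

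Read counts were recovered from the FPKM steps: values times the exonic length in GENCODE M21 gave whole reads for 17097 rows to within 0.01 reads, and the smallest whole numbers that give all 6 values (to within 0.0001 reads) were taken for the other rows above 0, Casp1 among them, where a common factor is unknown. Totals came to 26303187 to 44682688 reads per library. Relative to the authors' FPKM denominator these totals were 98.3% to 130% in KO and 75.4% to 97.9% in WT. In KO replicates 2 and 3 the recovered reads exceeded the denominator (122% and 130%), so it need not be the library's own mapped fragments. The reason was not tested. Counting intervals are exact Poisson intervals at 95%. Samples were grouped by genotype. Both fits were tested on simulated data.

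The 10 genes and the lists were chosen with earlier results of these data known. Of the pathway lists, called genes and the 3 most abundant are named, and of marker lists the 2 most abundant. Alternatives covered pseudocount, filter, scaling, eBayes settings, a replicate term, read counts and each library left out. limma-voom without the filter was added after the data were seen. The targeted gene and 1 list of markers are not reported here.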

Additional observations from a re-analysis of the deposited data

How the results depend on the processing

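Nlrc4, Aim2 and Pycard had the widest intervals of the 10 genes in limma-voom without the filter. The part of counting error in that width was not tested. None of the 10 genes was called by limma or limma-voom under any alternative, each library left out included; Nlrc4, Aim2 and Pycard were fitted only with no filter. On the values as deposited, where the median of all genes was shifted by 0.45, the sign turned for Casp1 (log2 fold change 0.24), Casp4 (0.34), Gsdmd (0.32), Ninj1 (0.17) and Mlkl (0.45), and among the pathway genes named in the text for Nlrp6 (0.31), Irf1 (0.34), Chmp2a (0.46), Irgm1 (0.52) and Zbp1 (0.21). There 2648 of all genes and 21 pathway genes were called higher, against 55 of all genes lower. Irgm1 was also above 0 with quantile normalization (0.063) and scaling to TPM (0.049).

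With single libraries left out, Casp4 had its lowest value, -0.37, without KO replicate 2 and its highest, 0.041, without WT replicate 2. Ripk3 ranged from -0.098 (without WT replicate 1) to 0.15 (without WT replicate 3), also below 0 without KO replicate 2 (-0.030). Chmp4b ranged from -0.086 (without KO replicate 1) to 0.11 (without WT replicate 1), Gbp2 from -0.10 (without KO replicate 1) to 0.20 (without KO replicate 2), and Tnfrsf1a from -0.0057 (without WT replicate 2) to 0.22 (without WT replicate 1). Over all genes 7 (without KO replicate 1) to 43 were then called higher and 13 (without KO replicate 1) to 54 lower, against 44 and 55 with all libraries. The higher count was 24 without KO replicate 2, 17 without KO replicate 3 and 18 without WT replicate 2 or 3, and the lower count 28 without KO replicate 3, 30 without WT replicate 2 and 36 without WT replicate 3. Of pathway genes 0 to 1 were called higher and 0 to 1 lower.

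With no filter 10 genes were called higher and 23 lower, and no pathway gene, with Hspa8 and Txnip at an adjusted p of 0.123 each (unadjusted p 0.000758 and 0.000778, against 0.000204 and 0.000150 with the filter); with a mean of at least 5 FPKM the counts were 28 and 33. Deviations of same-numbered libraries of the genotypes had correlations of 0.33, 0.47 and 0.02 for replicates 1 to 3, and WT replicate 1 correlated best with KO replicate 3 (0.36). These correlations cannot decide whether the numbers pair the samples, because deviations from a genotype's own mean are tied to each other. The labels state no pairing, and the main fit used none. A replicate block raised the counts to 123 higher and 175 lower of all genes, and to 3 higher and 4 lower of the pathway genes, among them Hsp90aa1 (adjusted p = 0.0252 in limma) and Hsp90ab1 (0.0378). The cause of these changes was not tested beyond what is stated.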
